A study of Mus musculus with 16 samples.

Results

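Voltage-gated sodium channels carry the inward current of the action potential. Each channel has 1 large alpha subunit, which forms the pore and opens on depolarisation, and smaller beta subunits, which tune gating and anchor the channel at the membrane. The genes described here are 4 alpha subunits of the central nervous system, Scn1a, Scn2a, Scn3a and Scn8a, and 2 beta subunits, Scn2b and Scn3b. They were chosen by name, with every transcript of each gene, and make up 6 of the 55266 genes and 54 of the 142435 transcripts in the deposited tables. Scn1a is known for its high level in parvalbumin interneurons and Purkinje cells, Scn2a and Scn8a for the axons of excitatory and other projection neurons, and Scn3a for the developing brain. Scn2b is covalently linked to the alpha subunit, and Scn3b binds it without a covalent bond.

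RNA was sequenced from frontal cortex (FC) and cerebellum of adult mice that were null for Upf3b (Upf3b-KO) and of littermate controls (Ctrl), with 4 libraries in each of the 4 groups. Upf3b encodes an X-linked factor of nonsense-mediated decay (NMD), which degrades RNAs whose stop codon lies well upstream of the last exon-exon junction. The study asked which RNAs depend on Upf3b in each region. The sources used here give neither strain, sex nor exact age. The labels number the libraries within a group but do not tie them to animals, so p-values measure only the spread between these libraries, which may be technical. By the study's account both regions were taken from 4 mice of each genotype, so FC and cerebellar libraries may share animals, and the comparisons between regions and the interaction treat all libraries as independent.

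The 15 libraries used held 27660078 to 35238677 counts each, so that 3 counts, the limit that a count of 0 allows, equalled 0.0851 to 0.108 CPM (the count scaled to the library total). The cerebellar Upf3b-KO library 1 held 64981 counts, at which 3 counts are 46.2 CPM. This shallow library was left out, so n = 3 in that group. Upf3b itself was at 14.8 ± 0.64 CPM in FC Ctrl and 0.56 ± 0.26 CPM in FC Upf3b-KO (SD, n = 4 each), and at 22.7 ± 1.2 (n = 4) and 0.74 ± 0.20 CPM (n = 3) in cerebellum. Libraries of a group differed little. The coefficient of variation beyond counting error, from edgeR's common dispersion over the genes tested, was 0.0399 in FC and 0.0387 in cerebellum. The median chi-square between any 2 libraries of a group was 2.17 to 2.70 times the value that sampling alone gives. Marker genes of other cell types differed between genotypes. In FC the summed level of 6 choroid plexus markers was 20.4 to 21.6 CPM in Ctrl and 2146 to 2199 CPM in Upf3b-KO (6 of 6 higher), that of 6 striatal markers 128 to 138 and 679 to 689 CPM (6 of 6 higher), and that of 5 oligodendrocyte markers 7118 to 7181 and 9694 to 9757 CPM (5 of 5 higher). In cerebellum 6 Purkinje cell markers summed to 10942 to 11100 CPM in Ctrl and 4370 to 4384 CPM in Upf3b-KO, and 6 granule cell markers to 3901 to 3923 and 2029 to 2043 CPM (6 of 6 lower in both lists), while choroid plexus markers went from 31.3 to 35.6 up to 1370 to 1391 CPM (6 of 6 higher) and oligodendrocyte markers from 5715 to 5807 up to 13688 to 13786 CPM (5 of 5 higher). In Ctrl the defining cerebellar markers were present in cerebellum and near 0 in FC: Gabra6 and Pcp2, of granule and Purkinje cells, were at 747 ± 7.2 and 385 ± 11 CPM in cerebellum and at 0.0753 ± 0.072 and 0.0975 ± 0.072 CPM in FC (SD, n = 4). In bulk RNA fewer cells of a type and less RNA per cell cannot be told apart, and the part of these marker differences in the sodium channel results was not tested.

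Several of the sodium channel genes are spliced in alternative forms, and the isoform results below turn on them. Scn2a and Scn8a, both on the plus strand, each carry a pair of neighbouring coding exons of 92 bases of which a transcript holds either the upstream or the downstream copy. These pairs encode part of the voltage sensor region of the first domain, and the upstream copies are known as neonatal forms and the downstream copies as adult forms. Scn1a and Scn8a also each have an exon that can end later, by 33 bases in the coding transcript Scn1a-203 and by 30 bases in the coding transcripts Scn8a-204 and Scn8a-219.

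Scn1a, on the minus strand of chromosome 2, has an exon of 64 bases that is annotated in the NMD-type transcript Scn1a-207 and skipped in its coding transcripts. Exons of this kind are called poison exons, because their inclusion leads to an early stop codon. The length is not divisible by 3, no stop lies inside the exon in that transcript, and the annotated stop lies in a later exon, at chr2:66119369-66119371 in GRCm39, which is 2018 bases upstream of the last junction. The exon is shown from 5′ to 3′ on the strand of the gene, because the share of Scn1a RNA that holds it is followed below.
Scn1a exon of Scn1a-207, chr2:66124176-66124239: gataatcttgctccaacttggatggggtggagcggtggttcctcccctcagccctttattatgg

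Levels of different genes were compared per length, as TPM (the count divided by transcript length, then scaled to a fixed total), computed from the counts and the annotated transcript lengths. In FC Ctrl the order was Scn2a at 108 ± 2.6 TPM, Scn3b at 77.5 ± 2.1, Scn8a at 41.8 ± 0.50, Scn1a at 31.0 ± 1.3, Scn3a at 14.2 ± 0.62 and Scn2b at 7.54 ± 0.93 (SD, n = 4). No neighbours in that order overlapped. In cerebellar Ctrl it was Scn2a at 156 ± 1.4, Scn1a at 78.2 ± 2.9, Scn8a at 47.7 ± 0.55, Scn2b at 12.9 ± 1.1, Scn3b at 1.39 ± 0.43 and Scn3a at 0.56 ± 0.21 TPM (SD, n = 4). Scn2a thus led in both regions of Ctrl, and Scn3a and Scn3b were present in cortex and near the bottom of the range in cerebellum. In FC Upf3b-KO the alpha subunits stood in the order Scn2a, Scn1a, Scn8a and Scn3a in TPM, at 98.5 ± 2.0, 46.2 ± 1.1, 42.5 ± 1.3 and 15.1 ± 0.91 (SD, n = 4), with Scn1a above Scn8a in every library. In cerebellar Upf3b-KO Scn1a, at 96.5 ± 1.2 TPM, and Scn2a, at 91.9 ± 2.0 TPM (SD, n = 3), did not overlap either, and Scn1a was the higher. The other genes there were Scn8a at 48.2 ± 1.9, Scn3b at 12.2 ± 0.35, Scn2b at 9.84 ± 1.6 and Scn3a at 7.41 ± 0.34 TPM, again with no overlap of neighbours.

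The make-up of the alpha subunit RNA is the share of each gene in the TPM of the 4 genes. Scn2a held 55.5% ± 1.0 in FC Ctrl and 48.7% ± 0.49 in FC Upf3b-KO (SD, n = 4), and 55.3% ± 0.70 (n = 4) and 37.7% ± 0.10 (n = 3) in cerebellum. Scn1a held 15.9% ± 0.61 and 22.9% ± 0.71 in FC, and 27.7% ± 0.90 and 39.5% ± 0.38 in cerebellum. In both regions the genotypes did not overlap for either gene. Scn8a held 21.4% ± 0.33 and 21.0% ± 0.53 in FC, which overlapped, and 16.6% to 17.3% and 19.4% to 20.2% in cerebellum, which did not. Scn3a held 7.25% ± 0.25 and 7.46% ± 0.45 in FC, and 0.20% ± 0.07 and 3.04% ± 0.19 in cerebellum. The summed alpha level was 195 ± 2.7 TPM in FC Ctrl, 202 ± 2.3 in FC Upf3b-KO, 283 ± 1.7 in cerebellar Ctrl and 244 ± 4.7 in cerebellar Upf3b-KO.

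**Figure D1:**
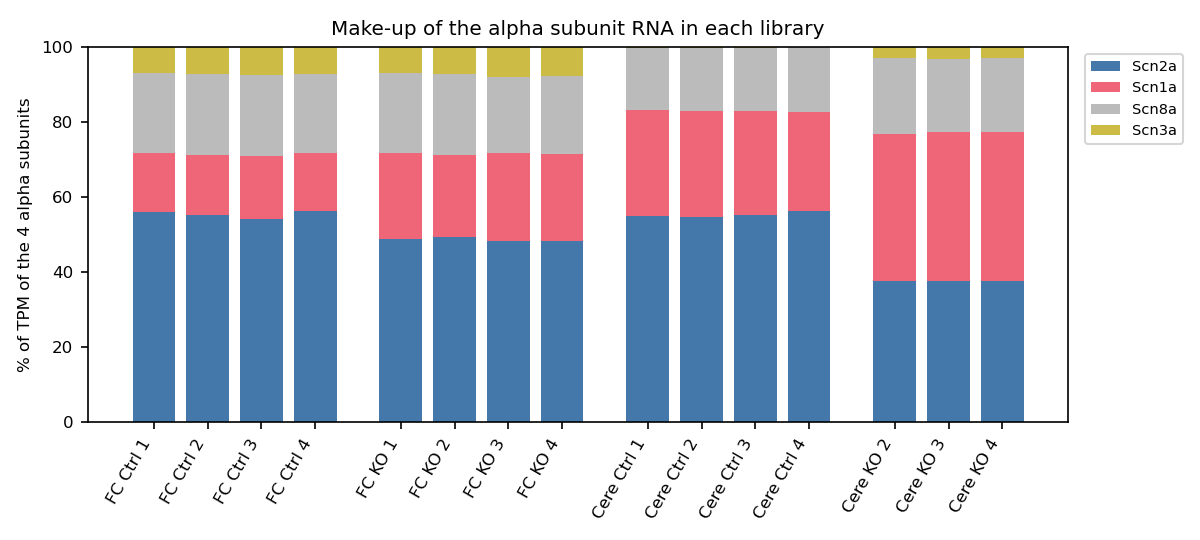
Each bar is 1 library, and its colours give the percent of the summed TPM of Scn1a, Scn2a, Scn3a and Scn8a that each gene held. Scn2a takes 54.1% to 56.4% in FC Ctrl and 37.5% to 37.7% in cerebellar Upf3b-KO, where Scn1a takes 39.1% to 39.8%.

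The comparison of Ctrl cerebellum with Ctrl FC asks how the channels differ between the regions in normal mice. All 6 genes passed the test (edgeR quasi-likelihood, adjusted p under 0.05 over 19831 genes), 4 higher in cerebellum and 2 lower, beside 73.1% of all genes tested (35.8% higher, 37.3% lower). Under the limits of the study, an adjusted p under 0.01 and over 2-fold, 3 of 6 passed beside 25.5%. Scn3b was at 131, 130, 134 and 131 CPM in the FC Ctrl libraries and at 1.88, 2.29, 2.34 and 1.88 CPM in cerebellum. Scn3a was at 48.4, 47.1, 50.4 and 49.7 CPM in FC and at 1.40, 1.02, 1.19 and 1.17 CPM in cerebellum. These were the widest regional gaps among the 6, with log2 differences, cerebellum minus FC, of −5.99 ± 0.05 (SE) for Scn3b and −5.38 ± 0.08 for Scn3a (adjusted p 6.00e-33 and 5.70e-27). Scn1a went the other way, from 97.0 to 107 CPM in FC to 239 to 256 CPM in cerebellum, a log2 difference of 1.26 ± 0.03 (adjusted p 2.15e-24). Scn2b was at 12.8 to 16.4 and 21.0 to 25.3 CPM, Scn2a at 348 to 358 and 458 to 468 CPM, and Scn8a at 182 to 192 and 200.3 to 202 CPM. Their log2 differences were 0.69 ± 0.11, 0.37 ± 0.02 and 0.08 ± 0.02 (adjusted p 2.19e-06, 2.82e-17 and 0.000629). The median over the 6 was 0.23, beside −0.03 over all genes.

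Between the Upf3b-KO regions 5 of the 6 genes passed, 2 higher and 3 lower, beside 68% of all genes tested (33.7% higher, 34.4% lower). Under the study's limits 3 passed, beside 21.8%. Scn3a and Scn3b were again lower in cerebellum, by log2 differences of −1.32 ± 0.06 and −2.53 ± 0.04, and Scn1a and Scn8a were higher, at 1.11 ± 0.03 and 0.12 ± 0.02. Scn2a had turned to the other side, with −0.15 ± 0.02 (adjusted p 2.75e-08). Scn2b, at 0.25 ± 0.11, missed the threshold (adjusted p 0.0542). It passed with no filter on low counts (adjusted p 0.00109) and without FC Upf3b-KO library 3 (0.0344), FC Upf3b-KO library 4 (0.0281) or cerebellar Upf3b-KO library 4 (0.00748).

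In FC, loss of Upf3b went with a higher level of Scn1a and lower levels of Scn2a and Scn3b. These 3 of the 6 genes passed, 1 higher and 2 lower, beside 53.3% of the 18218 genes tested, of which 28% were called higher and 25.3% lower. None passed the study's limits, beside 10.2%. Scn1a was at 101, 97.0, 107 and 102 CPM in Ctrl and 148, 144, 152 and 147 CPM in Upf3b-KO. The groups did not overlap, and Scn1a was 1.38-fold higher after TMM scaling (log2 0.46 ± 0.03, adjusted p 3.95e-12). Scn2a was at 348, 349, 356 and 358 CPM in Ctrl and 310, 317, 314 and 314 CPM in Upf3b-KO, and Scn3b at 131, 130, 134 and 131 and at 122, 124, 125 and 117 CPM. For both genes the Upf3b-KO libraries were all lower than the lowest Ctrl library, with log2 changes of −0.24 ± 0.02 (adjusted p 1.92e-11) and −0.19 ± 0.02 (adjusted p 9.61e-07). Across all genes 48.4% had groups that did not overlap, and 3 of the 6 sodium channel genes did.

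The other 3 genes did not pass in FC. Scn3a was at 47.1 to 50.4 CPM in Ctrl and 47.9 to 53.0 CPM in Upf3b-KO (log2 −0.04 ± 0.04, adjusted p 0.360), Scn8a at 182 to 192 and 184 to 196 CPM (−0.04 ± 0.02, adjusted p 0.109) and Scn2b at 12.8 to 16.4 and 11.9 to 17.7 CPM (0.03 ± 0.10, adjusted p 0.821). The values overlapped between genotypes for each of them. For Scn3a and Scn8a the mean CPM was slightly higher in Upf3b-KO and the TMM-scaled change slightly negative, so no direction is given. Beside the Scn1a result stands Pvalb, which encodes the calcium buffer of the interneurons that use much Scn1a: it was at 49.4 ± 1.3 CPM in FC Ctrl and 65.0 ± 0.57 CPM in FC Upf3b-KO (SD, n = 4; log2 0.32, adjusted p 1.16e-08), and the summed level of 4 parvalbumin interneuron markers was 138 to 148 and 187 to 194 CPM (3 of 4 higher, 1 lower). In cerebellum, where Scn1a was also higher, Pvalb went the other way, from 801 ± 14 (n = 4) to 535 ± 2.2 CPM (n = 3; log2 −0.63), and the 4 markers summed to 1045 to 1079 and 811 to 821 CPM (2 of 4 higher, 2 lower). Their part in the Scn1a result was not tested.

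In cerebellum 5 of the 6 genes passed, 3 higher and 2 lower in Upf3b-KO, beside 64.4% of the 17785 genes tested (33.1% higher, 31.3% lower). Scn3a and Scn3b also passed the study's limits, 2 of 6 beside 13.2%. In CPM the genotypes did not overlap for 5 of 6 genes, 4 of them higher, beside 63.4% of all genes. Scn3a was at 1.40, 1.02, 1.19 and 1.17 CPM in Ctrl and at 17.96, 21.7 and 20.7 CPM in Upf3b-KO libraries 2 to 4. Scn3b was at 1.88, 2.29, 2.34 and 1.88 CPM in Ctrl and at 21.4, 21.6 and 21.0 CPM in Upf3b-KO. The genotypes lay far apart for both genes, which were 16.3-fold (log2 4.02 ± 0.12, adjusted p 6.09e-16) and 9.79-fold higher (log2 3.29 ± 0.10, adjusted p 9.72e-16). Both remained below their FC level in the same genotype. Slc17a6, the vesicular glutamate transporter of brainstem, thalamic and deep cerebellar neurons, rose beside them from 9.36 ± 0.48 CPM (n = 4) to 156 ± 1.1 CPM (SD, n = 3), a log2 change of 4.004 (adjusted p 3.18e-23). The list of thalamic or brainstem glutamatergic markers that holds it summed to 134 to 141 CPM in Ctrl and 253 to 257 CPM in Upf3b-KO (1 of 3 higher, 2 lower), and 5 excitatory cortical markers, of which 4 were tested, summed to 549 to 569 and 347 to 354 CPM (0 higher, 3 lower). The part of either in the Scn3a and Scn3b results was not tested.

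Scn1a was also higher in Upf3b-KO cerebellum, at 320, 319 and 323 CPM against 256, 250, 246 and 239 CPM in Ctrl. Scn2a was lower, at 284, 281 and 291 CPM against 466, 458, 468 and 462 CPM. Neither gene had overlapping groups, and the changes were 1.25-fold higher for Scn1a (log2 0.32 ± 0.02, adjusted p 9.89e-11) and to 0.595 of Ctrl for Scn2a (log2 −0.75 ± 0.02, adjusted p 1.62e-17). Scn2b was lower at 21.4, 19.7 and 15.5 CPM against 25.3, 25.1, 23.8 and 21.0 CPM, with overlapping libraries (log2 −0.39 ± 0.09, adjusted p 0.000660). Scn8a was at 208 CPM in each of the 3 Upf3b-KO libraries and at 200.3 to 202 CPM in Ctrl, which does not overlap in CPM, but after TMM scaling the log2 change was −0.00 ± 0.02 (adjusted p 0.951). Scn2a fell together with the granule and Purkinje cell markers named above, and Scn1a rose while the Purkinje markers fell (6 of 6 lower). The part of these cells in either result was not tested.

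**Figure D2:**
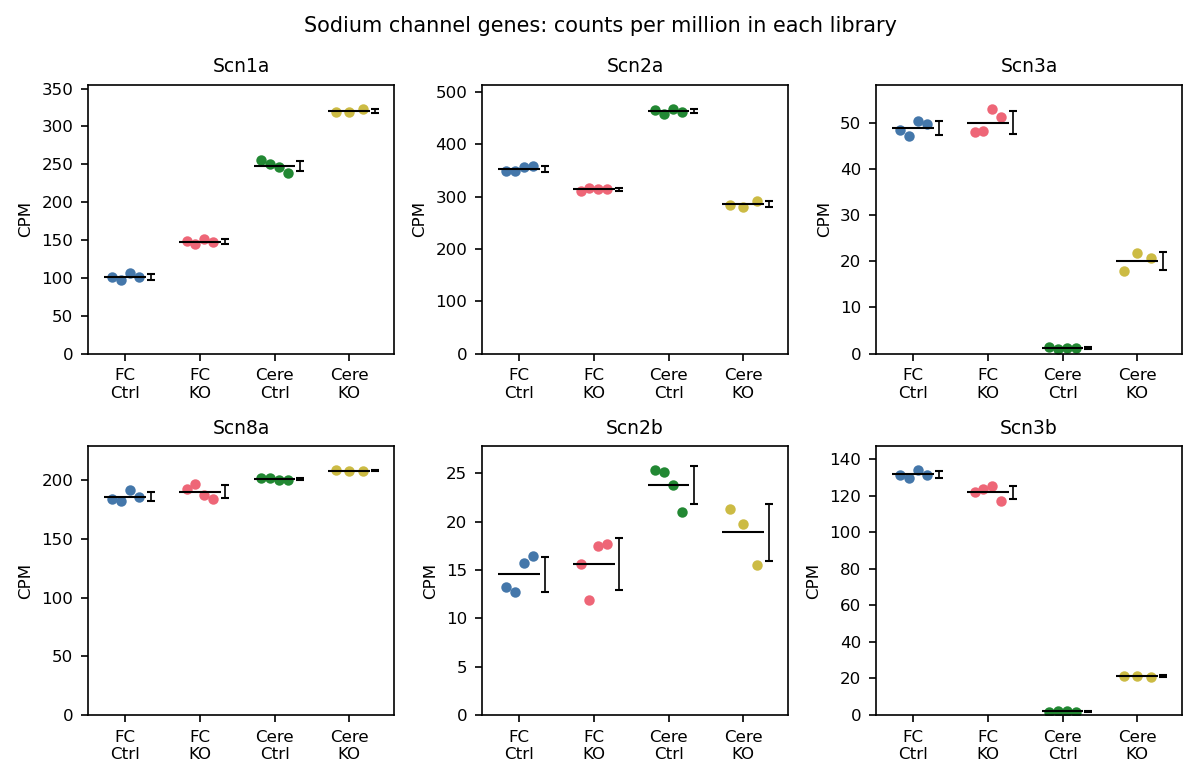
Each panel shows 1 gene in CPM on a linear axis from 0, with a point per library, a line at the group mean and a bar of ± 1 SD to its right. In FC only Scn1a, Scn2a and Scn3b separate by genotype, while in cerebellum Scn3a goes from 1.02 to 1.40 up to 17.96 to 21.7 CPM and Scn3b from 1.88 to 2.34 up to 21.0 to 21.6 CPM.

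Whether the genotype change differed between the regions was tested by the interaction of region and genotype in 1 fit of the 15 libraries. It was called for 5 of the 6 genes, 2 with a positive and 3 with a negative sign, beside 48% of the 19831 genes tested (24.2% and 23.8%). Under the study's limits 2 were called, beside 9.4%. The change in cerebellum exceeded that in FC by a log2 value of 4.06 ± 0.11 for Scn3a and 3.47 ± 0.07 for Scn3b (adjusted p 1.95e-20 and 8.01e-23). It was lower in cerebellum by −0.51 ± 0.02 for Scn2a, −0.15 ± 0.04 for Scn1a and −0.43 ± 0.16 for Scn2b (adjusted p 5.80e-16, 0.000945 and 0.0243). Scn1a rose and Scn2a fell in both regions, so for these genes the interaction is a difference in size. On the log2 scale the rise of Scn1a was the larger in FC and the fall of Scn2a the larger in cerebellum. In mean CPM the rise of Scn1a was the larger in cerebellum, at 72.8 against 46.1 CPM in FC. Scn3b fell in FC and rose in cerebellum. The interaction for Scn8a was 0.03 ± 0.03 (adjusted p 0.410). The Scn2b interaction lost its call in DESeq2 (adjusted p 0.0735) and without any of 4 single libraries, FC Ctrl 2, FC Upf3b-KO 3, FC Upf3b-KO 4 or cerebellar Upf3b-KO 4, with adjusted p from 0.0548 to 0.137.

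**Figure D3:**
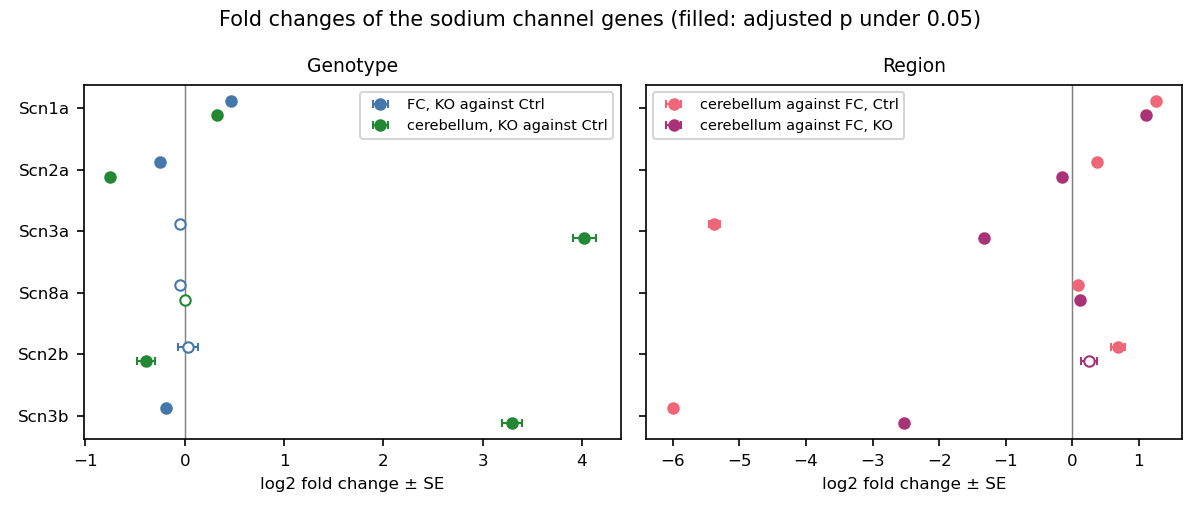
Points are log2 fold changes from the edgeR fits with bars of ± 1 SE, the left panel for Upf3b-KO against Ctrl in each region and the right panel for cerebellum against FC in each genotype. Filled points had an adjusted p under 0.05. The largest genotype changes are those of Scn3a (4.02) and Scn3b (3.29) in cerebellum.

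The 54 transcripts comprised 35 annotated as protein coding, 10 as retained intron, 6 as nonsense-mediated decay and 3 with no defined coding sequence. Of these, 50 had counts above 0 in at least 1 of the 15 libraries, and 28 in FC and 26 in cerebellum passed the filter on low counts. The estimates per transcript were less sharp than those per gene. The coefficient of variation beyond counting error, from edgeR's common dispersion over the transcripts tested, was 0.495 in FC and 0.528 in cerebellum. A different measure, the median of the single-transcript estimates above 10 CPM, was 0.102 and 0.105. In FC 1 of the 28 passed, the coding Scn1a-203, beside 16.4% of the 42318 transcripts tested (8.67% higher, 7.68% lower). In cerebellum 11 of 26 passed, 7 higher and 4 lower, beside 22.6% of 44388 (12.3% higher, 10.3% lower). Of those higher, Scn2a-208, Scn3a-206 and Scn3b-201 passed the filter only through the Upf3b-KO libraries. Under the study's limits 0 passed in FC and 5 in cerebellum, beside 3.22% and 4.76%. The CPM of the genotypes did not overlap for 1 of 28 and 15 of 26, beside 23.9% and 35.9%. None of 27 tested member transcripts in FC and none of 25 in cerebellum had a changed share of its gene in edgeR's diffSpliceDGE test, beside 0.86% (0.616% higher, 0.244% lower) and 1.25% (0.658% higher, 0.59% lower) of all, or 0.499% and 0.644% under the study's limits. At an unadjusted p under 0.05 that test called 1 in FC and 5 in cerebellum, beside 4.52% and 5.33% of all transcripts tested. The exact permutation test of the share, also unadjusted, called 1 in FC and 6 in cerebellum, and the shares of the genotypes did not overlap for 1 and for 6, beside 10.1% and 17.2% of all transcripts so compared.

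The NMD-type Scn1a-207, the transcript with the 64-base exon, was at 1.11, 5.91, 3.37 and 1.84 CPM in FC Ctrl and 7.23, 5.80, 7.33 and 8.78 CPM in FC Upf3b-KO. The second Ctrl library reached the range of the Upf3b-KO libraries, and the other 3 lay below it. The log2 change was 1.19 ± 0.47 with an unadjusted p of 0.0360 and an adjusted p of 0.147 in edgeR. DESeq2 gave 0.0444, and leaving out that Ctrl library gave a log2 change of 1.72 with an adjusted p of 0.0287. In cerebellum it was at 1.53, 4.36, 1.88 and 0.51 CPM in Ctrl and 7.004, 1.88 and 4.09 CPM in Upf3b-KO, which overlap (log2 1.06 ± 0.72, adjusted p 0.379). Of the counts from Scn1a transcripts that either hold or skip the exon, 1.11%, 6.12%, 3.17% and 1.81% held it in FC Ctrl and 4.90%, 4.03%, 4.86% and 5.99% in FC Upf3b-KO (exact permutation test, two-sided, p = 0.200). In cerebellum the means were 0.836% ± 0.66 in Ctrl (n = 4) and 1.35% ± 0.81 in Upf3b-KO (n = 3), with an exact permutation p of 0.429. Between regions the share was higher in FC in Upf3b-KO, where the groups did not overlap (exact p = 0.0286, the smallest that the design allows), and in Ctrl the exact p was 0.0571.

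Most of the higher Scn1a level in FC came from coding transcripts. Of the 46.1 CPM by which the mean of the gene rose, Scn1a-203, which starts upstream of Scn1a-201 and has the 33-base longer exon end, gave 29.9 CPM, Scn1a-201 10.01 CPM and Scn1a-207 4.23 CPM. Scn1a-203 went from 49.7, 48.3, 32.4 and 42.7 CPM to 83.2, 73.7, 67.3 and 68.5 CPM, with no overlap (log2 0.69 ± 0.14, adjusted p 0.00988). In cerebellum the rise of 72.8 CPM was shared by Scn1a-201 with 36.7 CPM, Scn1a-203 with 31.7 CPM and Scn1a-205 with 6.11 CPM, and all 3 passed, at log2 changes of 0.36 ± 0.04, 0.42 ± 0.05 and 0.41 ± 0.11 (adjusted p 0.000651, 0.000724 and 0.0320). Scn1a-205 lost its call without any of 6 single libraries, Ctrl 1, 2 or 3 or Upf3b-KO 2, 3 or 4, with adjusted p up to 0.113. With the shallow library included neither Scn1a-203 nor Scn1a-205 passed (adjusted p 0.366 and 0.204). The share with the 33-base longer end was 44.4% ± 9.7 and 52.3% ± 5.4 in FC (exact p = 0.229) and 39.4% ± 1.6 and 40.1% ± 1.9 in cerebellum (exact p = 0.514), in Ctrl and Upf3b-KO.

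In Scn2a the regions differed in which copy of the 92-base exon was used. The upstream copy took 79.2%, 80.3%, 78.7% and 81.2% of the counts that hold either copy in FC Ctrl and 57.3%, 61.4%, 58.9% and 61.4% in cerebellar Ctrl. The regions lay apart by 20.1 percentage points (exact permutation p = 0.0286). In FC Upf3b-KO the share was 74.5%, 75.5%, 77.2% and 75.4%, below every FC Ctrl library, a difference of −4.19 points (exact p = 0.0286). In cerebellum it was 59.7% ± 2.0 in Ctrl (n = 4) and 60.6% ± 0.86 in Upf3b-KO (n = 3), which overlap (exact p = 0.543). The transcripts that hold the downstream copy are Scn2a-204 and Scn2a-205. Scn2a-205 was the member whose share did not overlap between genotypes in FC, at 17.6% ± 1.6 in Ctrl and 21.2% ± 1.2 in Upf3b-KO (SD, n = 4), and in diffSpliceDGE its share had an unadjusted p of 0.0414 and did not pass after adjustment. Such shares are estimates over full transcript models, which also differ in their 5′ ends, so they are not direct counts of reads across the exon.

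In cerebellum 4 of the 7 tested Scn2a transcripts were lower and 1, Scn2a-208, was higher. Scn2a-201 went from 205, 243, 209 and 185 CPM to 96.7, 106 and 148 CPM, and Scn2a-205 from 182, 161, 177 and 160.1 CPM to 101, 100.0 and 111 CPM. The genotypes did not overlap for either, and the log2 changes were −0.85 ± 0.16 and −0.71 ± 0.06 (adjusted p 0.00907 and 0.000214). Scn2a-204 and the retained-intron Scn2a-206 also fell, with −0.95 ± 0.21 and −1.59 ± 0.23 (adjusted p 0.0156 and 0.00232). With the shallow library included Scn2a-204 did not pass (adjusted p 0.0544). The coding Scn2a-202 was at 56.8, 32.6, 61.8 and 94.0 CPM in Ctrl and 73.7, 64.4 and 23.1 CPM in Upf3b-KO, with wide overlap (log2 −0.19 ± 0.46, adjusted p 0.834). In FC Ctrl Scn2a-202 had the highest mean, at 42.6% ± 3.2 of the gene, or 150 CPM beside 130 CPM for Scn2a-201. In cerebellar Ctrl Scn2a-202 held 13.2% ± 5.5, Scn2a-201 45.5% ± 5.5 and Scn2a-205 36.7% ± 2.1 (SD, n = 4).

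The NMD-type Scn2a-208 has an exon of 84 bases, at chr2:65549282-65549365, whose annotated stop codon ends 6 bases after the exon begins, 199 bases upstream of the last junction. It was at 0 CPM in all 4 Ctrl libraries of the cerebellum and at 0.578, 0.565 and 0.627 CPM in Upf3b-KO, or 16.6 to 21.4 counts a library. Against a floor of 3 counts in a Ctrl library it was at least 5.44-fold higher (adjusted p 0.00684). That limit covers counting error and not the division of reads among transcripts. The transcript passed the filter on low counts only through the Upf3b-KO libraries, so this p-value is no separate support. In FC it was at 0 in all 4 Ctrl libraries and at 0, 0, 0.122 and 0.0589 CPM in Upf3b-KO, too low to be tested. Of the cerebellar counts that hold or skip this exon, 0.208% to 0.222% held it in Upf3b-KO. The share test of Scn2a-208 had an unadjusted p of 0.00251 and an adjusted p of 0.144, but it passed with no filter on low counts (adjusted p 0.00913). The adjusted p for its level was 0.0509 to 0.0522 when any of the Upf3b-KO libraries was left out. The other NMD-type transcripts of Scn2a, Scn2a-207 and Scn2a-210, stayed at or below 0.231 and 0.478 CPM and were not tested. All 3 together held 0.021% ± 0.035 of Scn2a in cerebellar Ctrl and 0.356% ± 0.089 in cerebellar Upf3b-KO, and 0.026% ± 0.023 and 0.018% ± 0.016 in FC.

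**Figure D4:**
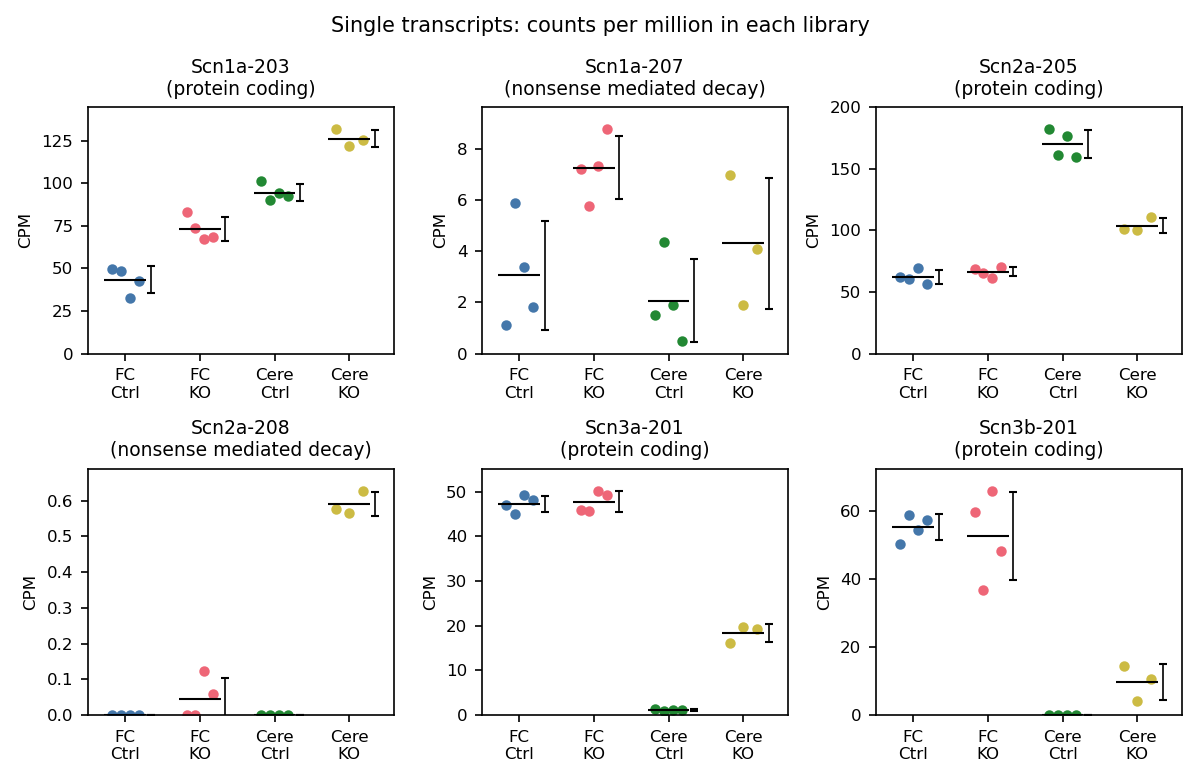
Each panel shows 1 transcript, with its annotated type, in CPM on a linear axis from 0, with a point per library, the group mean and ± 1 SD. Scn2a-208 is at 0 in the 8 Ctrl libraries and at 0.565 to 0.627 CPM in cerebellar Upf3b-KO, while Scn1a-207 overlaps between genotypes in both regions.

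In the cerebellum the rise of Scn3a was in its main coding transcript. Scn3a-201 held 94.8% to 97.5% of the gene in the 8 FC libraries and 89.3% to 93.7% in cerebellar Upf3b-KO. It went from 1.298, 0.928, 1.095 and 1.15 CPM in cerebellar Ctrl to 16.0, 19.6 and 19.4 CPM in Upf3b-KO (log2 4.02 ± 0.16, adjusted p 4.06e-06). The coding Scn3a-206 was at 0, 0, 0 and 0.0170 CPM in Ctrl, too near 0 for a fold. In Upf3b-KO it was at 0.477, 1.17 and 0.557 CPM (adjusted p 0.00946). It passed the filter on low counts only through the Upf3b-KO libraries. Without Upf3b-KO library 3 its adjusted p was 0.0603. The 2 NMD-type transcripts of Scn3a held 0.404% ± 0.16 and 0.781% ± 0.63 of the gene in FC and 1.59% ± 2.7 and 4.19% ± 3.3 in cerebellum, in Ctrl and Upf3b-KO, and neither passed the filter on low counts in either region. Of these, Scn3a-207 was at 0 in all 4 cerebellar Ctrl libraries and at 1.09, 0.485 and 0.206 CPM in Upf3b-KO. Its mean was at least 5.48-fold higher against the same floor. The Upf3b-KO libraries held 7.01 to 31.3 counts, and library 2, the highest, carries much of that mean. Scn3a-207 was tested and passed with no filter (adjusted p 0.0256) and without Upf3b-KO library 4 (0.0468). With Ctrl at 0, it entered these fits only through Upf3b-KO.

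Scn3b RNA was divided mainly between the coding Scn3b-201 and Scn3b-203, at 41.9% ± 3.1 and 39.0% ± 7.8 of the gene in FC Ctrl. In cerebellum Scn3b-201 was at 0 in all Ctrl libraries and at 14.3, 4.05 and 10.6 CPM in Upf3b-KO (adjusted p 0.00287). It passed the filter on low counts only through the Upf3b-KO libraries. No fold is given, since the whole gene was at 1.88 to 2.34 CPM in those Ctrl libraries and RSEM assigned it to other transcripts, all of it to Scn3b-203 in libraries 1 and 3 and to Scn3b-206 in library 4. Scn3b-203 was at 1.88, 0.94, 2.34 and 0 CPM in Ctrl and 6.96, 8.90 and 8.89 CPM in Upf3b-KO, with no overlap, but did not pass (log2 2.66 ± 1.03, adjusted p 0.117). It passed in DESeq2 (adjusted p 0.0257) and without Ctrl library 4, the one at 0 (0.00793). The share of Scn3b-201 ranged from 18.8% to 66.8% of the gene over the 3 Upf3b-KO libraries, whereas the summed gene ranged only from 21.0 to 21.6 CPM. Scn2b has a single transcript, so its values per gene and per transcript are from the same counts. Scn2b-201 did not pass in the cerebellar transcript test (log2 −0.34 ± 0.12, adjusted p 0.102), but passed in DESeq2 (0.0288).

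Scn8a did not pass between genotypes in either region, although without FC Upf3b-KO library 2 its FC change was −0.06 with an adjusted p of 0.0380. Its forms differed between regions. Scn8a-205 held 61.2% ± 2.0 of the gene in FC Ctrl and 40.7% ± 2.6 in cerebellar Ctrl, and Scn8a-203, which starts further upstream, held 17.98% ± 6.4 and 44.8% ± 4.2 (SD, n = 4). These ranges did not overlap. The upstream copy of the 92-base exon took 17.97%, 14.8%, 30.03% and 18.2% in FC Ctrl and 17.4%, 10.5%, 14.3% and 11.5% in cerebellar Ctrl (exact p = 0.0571), and did not separate by genotype in either region (exact p = 0.943 in FC and 0.171 in cerebellum). By these estimates over full transcript models, the downstream copy prevailed in Scn8a in all 15 libraries, whereas the upstream copy prevailed in Scn2a. The 30-base longer exon end was held by 0%, 0%, 0.642% and 0.873% in FC Ctrl and 1.31%, 1.92%, 0.863% and 0.927% in FC Upf3b-KO (exact p = 0.0571). In cerebellum it was held by 1.86%, 0%, 0% and 1.55% in Ctrl and 2.14%, 2.97% and 5.05% in Upf3b-KO, which do not overlap (exact p = 0.0286). These exact tests were run on 9 exon forms in each of 4 comparisons, with no adjustment. Scn8a-204, which carries this end, had an unadjusted p of 0.0698 in the cerebellar share test and did not pass.

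**Figure D5:**
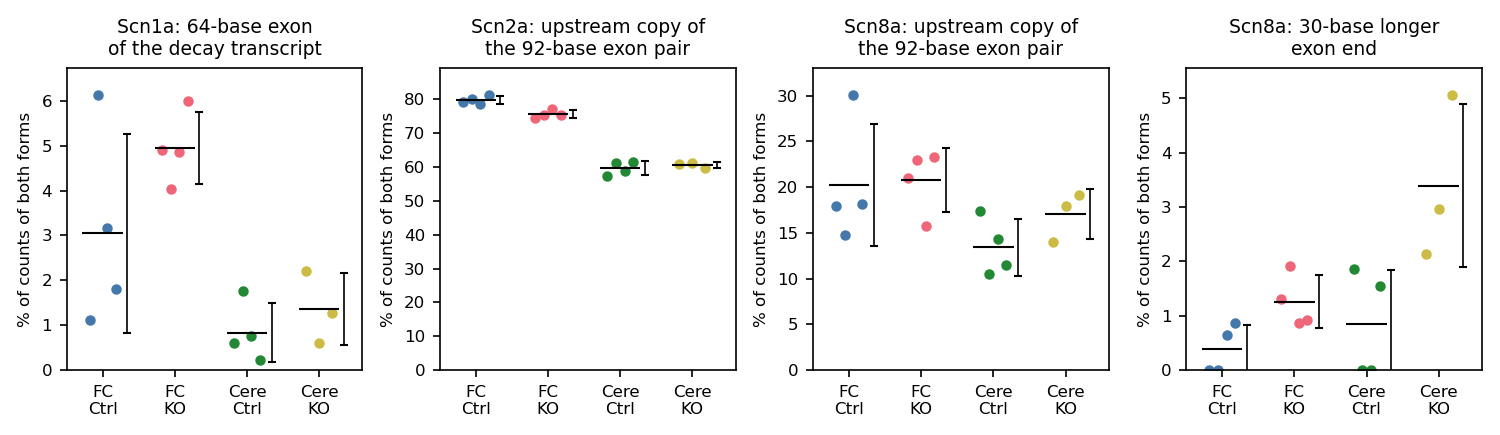
Each panel gives the percent of counts from transcripts with a given exon form among those with either form, with a point per library, the group mean and ± 1 SD on a linear axis from 0. The upstream copy in Scn2a lies at 78.7% to 81.2% in FC Ctrl and 57.3% to 61.4% in cerebellar Ctrl, and the upstream copy in Scn8a at 10.5% to 30.03% over all libraries.

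Other genes of sodium channels and their partners were taken from a list of 24. Among the beta subunits not named above, Scn4b, whose tail can block the open pore and give resurgent current, went from 27.9 ± 1.9 to 172 ± 2.6 CPM in FC (SD, n = 4; log2 2.55, adjusted p 4.04e-23) and from 121 ± 1.9 (n = 4) to 244 ± 1.2 CPM (n = 3) in cerebellum (log2 0.96, adjusted p 7.82e-18). Scn4b is abundant in striatal neurons, and their marker list moved with it in FC as given above, while in cerebellum that list summed to 368 to 380 and 315 to 326 CPM (3 of 6 higher, 1 lower). The part of these cells was not tested. Of 7 further alpha subunit and relative genes, 4 were tested. In FC 3 did not pass and Scn7a was lower, from 6.39 to 4.99 CPM (log2 −0.43, adjusted p 0.00220), the other direction from cerebellum. In cerebellum 3 were higher by more than 2-fold, among them Scn7a and Scn9a at log2 changes of 3.12 and 3.41. Nalcn, the sodium leak channel, was lower there at −0.06. Over all genes tested, 25.3% were lower in FC, and 33.1% were higher and 31.3% lower in cerebellum. The study's limits were passed by 13.2% in cerebellum. Scn7a and Scn9a stood in cerebellar Upf3b-KO at 3.02 ± 0.58 and 4.71 ± 0.15 CPM (SD, n = 3).

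Of the 4 FGF homologous factors, intracellular proteins that bind the channel tail, 3 were lower in FC and 1 did not pass, while in cerebellum 2 were higher and 2 lower. Of all genes tested 25.3% were lower in FC, and 33.1% were higher and 31.3% lower in cerebellum. Fgf14 was the one past 2-fold, from 158 ± 4.7 to 79.1 ± 0.55 CPM in cerebellum (log2 −1.04). Fgf11 was lower in both regions (−0.47 and −0.31), and Fgf12 (−0.31 and 0.11) and Fgf13 (−0.25 and 0.69) were lower in FC and higher in cerebellum. Of the 4 anchors of the axon initial segment, the adhesion protein Nfasc was higher in both regions (0.32 and 0.25), and Ank3, which encodes ankyrin G, and Nrcam were lower in both (−0.10 and −0.09, and −0.30 and −0.24). In all, 1 of the 4 was higher and 3 lower in FC, beside 28% and 25.3% of all genes tested. In cerebellum 1 was higher and 2 lower, beside 33.1% and 31.3%. Of 7 other partners, 5 were lower and 2 did not pass in FC, and 1 was higher, 5 lower and 1 did not pass in cerebellum, beside 53.3% and 64.4% of all genes called in either direction. Among them Nedd4l, a ubiquitin ligase that acts on channels, Pak1 and Ywhah were lower in both regions, with log2 changes of −0.12, −0.07 and −0.14 in FC and −0.77, −0.19 and −0.65 in cerebellum.

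The genes whose levels were most like each member over the 15 libraries were ranked by Pearson's r of log2(CPM + 1) among 9376 other protein-coding genes, or 9377 for Scn3a. This is a description, since the 15 points fall into 4 groups that share tissue and genotype. Among the 3 nearest to Scn2a were Kcnma1 and Crmp1 (r 0.994 and 0.990). The 3 nearest to Scn1a were Trf, Abca2 and Eml1 (0.998, 0.995 and 0.995), to Scn3a Olfm2, Rasgrf2 and Map1a (0.999, 0.999 and 0.998) and to Scn3b Tmem132b, Creg2 and Epha5 (0.999 each). Scn8a and Scn2b had lower values, with Bckdha, Fam120b and Pyurf (0.966, 0.964 and 0.952) and AI837181, Dhx38 and Zfp790 (0.921, 0.916 and 0.909).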

How the data were processed

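Frontal cortex and cerebellum of Ctrl and Upf3b-KO mice were profiled by bulk RNA-seq in 16 libraries, grouped by their labels. Per the labels and methods, ribosomal RNA was removed and a SMART-Seq kit used, and the authors aligned the read pairs with STAR 2.5.2b to GRCm39 (an Ensembl annotation) and deposited RSEM expected counts per transcript, unscaled, in 1 table per region. Strandedness was not given in the sources used here, so reads of antisense genes could not be told apart. Expected counts divide reads among transcripts and near-identical genes by a model, and so shares of similar transcripts are less certain than gene sums.

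Transcript names, types and exons came from GENCODE vM39 on GRCm39, a later release than the authors used. Of 142435 transcripts, 141102 matched, and 1333 did not and were left out of gene sums. Counts were summed per gene, rounded, filtered with filterByExpr (minimum count 10, minimum total 15), scaled by TMM and tested with edgeR 4.0.16 quasi-likelihood F tests in R 4.3.3, with Benjamini-Hochberg adjustment over all features and a threshold of 0.05. Isoform shares were tested with diffSpliceDGE, and exon forms with exact permutation tests of the mean share, two-sided, for forms with at least 100 counts in every library and at least 1% in a group, and for decay exons. The study's limits (adjusted p under 0.01, over 2-fold), DESeq2 1.42.0, other scaling and filters, a replicate block, length offsets, coding transcripts only, the shallow library and single libraries left out were alternatives. The fits were run on simulated counts without low-count features and with a narrow spread, which does not check calls of low-count transcripts. Intervals and floors cover counting error only. Total counts per library set the precision, and 0 sample columns were left unused.

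The members, lists and tests were chosen with earlier results of these data known. The text names all 6 genes, the leading transcript of each, transcripts that passed a test, tested NMD-type transcripts, and partner genes that passed in both regions. Scn2a-202, Scn2a-207, Scn2a-210, Scn8a-203, Scn8a-204, Scn7a, Scn9a, Nalcn, Fgf14, Pvalb, Slc17a6, Gabra6 and Pcp2 were named after their values were seen. Some genes and sequences that this rule would name are not reported here.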

Additional observations from a re-analysis of the deposited data

Results flagged for a closer look

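The genotype change differed between regions, by the interaction test, for 5 of the 6 genes. As log2 values, cerebellum minus FC, the differences were −0.15 for Scn1a, −0.51 for Scn2a, −0.43 for Scn2b, 4.06 for Scn3a and 3.47 for Scn3b. All but that of Scn2b kept their sign and an adjusted p under 0.05 in all 21 alternative fits.

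Among 63 groups of 4 libraries looked at, 1 had a library far from the other 3: Scn3a-206 in cerebellar Ctrl, where library 4 was at 0.0170 CPM and the others at 0. Chance flags about 1 in 20 such groups, and this value is under 1 count.

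The shallow cerebellar Upf3b-KO library 1, which was left out of the comparisons except where it was added as an alternative, held 4 counts of Scn3a, or 61.6 CPM with an exact 95% Poisson interval of 16.8 to 158 CPM for counting error only. The highest Ctrl library of the cerebellum was at 1.40 CPM. The same library held 17 counts of Scn1a, 15 of Scn2a and 14 of Scn8a, and 0 of Scn2b and Scn3b, for which the upper end of the same interval is 56.8 CPM.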

How the results depend on the processing

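Of 969 alternatives of single values under 26 settings, 908 kept direction and side of the threshold, 23 lost and 15 gained the call, and 23 changed sign. Of 155 counts of members called, 138 stayed within 1.5 times and 17 did not. The genotype calls of Scn1a, Scn2a, Scn3a and Scn3b per gene and region held their side in all 15 fits each.

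Under the study's limits the counts of genes called were 0 in FC, 2 in cerebellum, 3 and 3 between regions in Ctrl and Upf3b-KO, and 2 for the interaction, and those of transcripts 0 in FC and 5 in cerebellum. For transcripts in FC, DESeq2 called 5 of 28 (24.3% of all), and leaving out single libraries gave 1 to 3 (3 without Upf3b-KO library 3, beside 12.5%). With the shallow library included 5 of 21 transcripts were called in cerebellum (10% of all), and Scn1a-203, Scn1a-205 and Scn2a-204 lost the call. For cerebellar shares, no filter gave 1 (Scn2a-208), leaving out single libraries 0 to 1 (Scn2a-202 without Upf3b-KO library 4), and the unadjusted exact permutation test 6, against 1 in FC.

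Sign changes were all in values that missed the threshold. Without single libraries, the log2 change in FC ran from −0.0327 to 0.141 for Scn2b, −0.0202 to 0.152 for Scn2b-201, −0.26 to 0.0033 for Scn3b-201, −0.195 to 0.0398 for Scn3b-203, −0.0433 to 0.24 for Scn2a-204 and −0.0157 to 0.0877 for Scn2a-205, and in cerebellum from −0.0464 to 0.0939 for Scn8a-205. Scn8a in cerebellum was 0.0062 with the stricter filter and 0.0077 with the shallow library, and Scn8a-205 was −0.0029 with no filter, −0.0047 with the stricter filter and −0.0309 with the shallow library. The causes were not tested.

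The replicate numbers were not taken to pair the samples: same-numbered libraries correlated at −0.107 to 0.119, and 3 of 14 correlated best with their own number. With the replicate number as a block 7 transcripts were called in cerebellum (5165 in all, against 10028), Scn8a-205 was at −0.0058, and Scn2a-208, Scn3a-206, Scn2a-204, Scn2a-201 and Scn1a-205 lost the call, with adjusted p of 0.178, 0.158, 0.125, 0.0999 and 0.0515, while Scn8a-203 gained it (−0.17, adjusted p 0.0387). The block left the member counts per gene at 3 in FC, 5 in cerebellum, 6 and 5 between regions and 5 for the interaction, at 1 for FC transcripts and at 0 for shares.

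Depth was 27660078 to 35238677 counts in the libraries used, so transcripts under about 0.108 CPM could not be told from 0.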
